A study of Mus musculus with 16 samples.

Results

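The cytosolic ribosomal protein genes encode the proteins that, with ribosomal RNA, build the large (Rpl and Rplp symbols) and small (Rps symbols) subunits of the ribosome outside mitochondria. They were taken from the gene symbols: Rpl or Rps followed by a number (with an optional a, x or y, digit and final l), Rplp0 to Rplp2, and Rpsa, without rows named as pseudogenes. The symbol rule itself used no measured value, but the set was chosen with earlier results of these data known. It gave 87 of the 54838 genes in the count table, 52 of the large and 35 of the small subunit, spread over 19 chromosomes with 4 on chromosome X. The annotation (GENCODE M21, GRCm38) lists 82 of them as protein coding. It lists the other 5 (Rps4l, Rpl32l, Rpl6l, Rps3a2 and Rps3a3) as pseudogene types, although their symbols do not say so.

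RNA was sequenced from the spleens of C57BL/6 mice, with no genetic change or treatment named in the labels and no age given there. Size-selected samples (8) are what a cell strainer held back once spleens had been digested with enzymes and red blood cells lysed, and the labels give their source as spleen glia, the support cells of nerve fibres. Whole spleen samples (8) carry the same protocol text, with no separate account of how they were prepared. The numbers 407, 408, 427 and 435 (male) and 436, 445, 447 and 460 (female) each name 1 sample of each group, and the design sets the size-selected samples against whole spleen.

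A cell makes ribosomal proteins in nearly equal numbers, since each ribosome holds 1 copy of most of them, and their mRNAs are among the most abundant of growing and dividing cells. Many of these mRNAs start with a C followed by a run of pyrimidines, the terminal oligopyrimidine tract, through which mTOR and LARP1 control their translation as a group. Proteins made in excess are degraded, and loss of 1 gene copy of several of them causes Diamond-Blackfan anaemia, a failure of red blood cell production.

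Such a start was looked for in the sequence around the annotated start sites. RefSeq promoters on GRCm38.p6 were matched for 63 of the 87 genes. A C at the start site followed by at least 4 pyrimidines stood in 14 of the 63 (22.2%), against 3.01% of 27025 genes with a promoter. The 14 include Rpl32l, annotated as a processed pseudogene. Rps15a, Rps18, Rps27 and Rplp2 are shown because they carry this start and their RNA values are described below. Each line gives 25 bases before and 20 bases from the start site, 5′ to 3′ on the gene's strand, with the tract in capitals.
Rps15a (chr7:118116128-118116172, minus strand): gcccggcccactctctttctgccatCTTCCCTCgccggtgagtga
Rps18 (chr17:33955646-33955690, minus strand): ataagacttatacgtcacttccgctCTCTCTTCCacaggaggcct
Rps27 (chr3:90213629-90213673, minus strand): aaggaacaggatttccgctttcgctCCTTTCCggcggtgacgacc
Rplp2 (chr7:141447626-141447670, plus strand): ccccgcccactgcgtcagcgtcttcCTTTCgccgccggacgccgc

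Other motifs were counted in the 300 bases of promoter (250 before and 50 after the start). CTTTC on the gene's strand, the core of many tracts, stood in 66.7% of the 63 and in 37.9% of all genes with a promoter. CGGAAG on either strand, the core of sites for ETS factors such as GABPA, stood in 68.3% and 18.8%. GCCATNTT on either strand, part of the YY1 motif, stood in 17.5% and 6.96%, and GGGCGG on either strand, the GC box bound by SP1, in 60.3% and 38.2%. TATAAA on the gene's strand stood in 9.52% and 9.77%. A match is a description of the sequence. CTTTC can overlap the tract counted above.

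Totals ranged from 13119992 to 19944440 estimated counts in the size-selected samples and from 12153770 to 16282454 in whole spleen. Every size-selected sample, but no whole spleen sample, has genes whose deposited values are 2-decimal counts times 1 to 3 constants below 1, found from the values alone. They number 3712 to 3796 in a sample by their extra decimals and 3898 over the samples together. The high constant lowers a gene by 0.05 to 0.17 on the log2 scale and the middle constant by 0.22 to 0.38, depending on the sample. Of the 87 ribosomal protein genes, 67 carry the high constant, 12 carry the middle and high constants together, 1 carries the middle one and 7 carry none. A constant is thus carried by 80 of the 87, against 3898 of all 54838 genes. The high constant, alone or with others, is carried by 79 of the 87, against 1999 of all genes. Values below are as deposited unless they are called restored, which means divided by these constants. The labels and file headers do not speak of them.

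Ribosomal protein mRNA was lower in the size-selected samples than in whole spleen. The genes together took 6.69 ± 0.892% of all counts in whole spleen (SD, n = 8), from 5.43% in number 427 to 7.81% in number 435. They took 2.82 ± 0.449% in the size-selected samples (SD, n = 8), from 2.25% in number 460 to 3.40% in number 435, and 2.98 ± 0.466% when restored. The lowest whole spleen sample was thus above the highest size-selected sample. Within a number, the size-selected share was 0.426 ± 0.0749 of the whole spleen share (SD, n = 8), from 0.332 in number 460 to 0.572 in number 445. In these bulk samples, fewer cells rich in these mRNAs and less of the mRNA in each cell cannot be told apart.

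**Figure D1:**
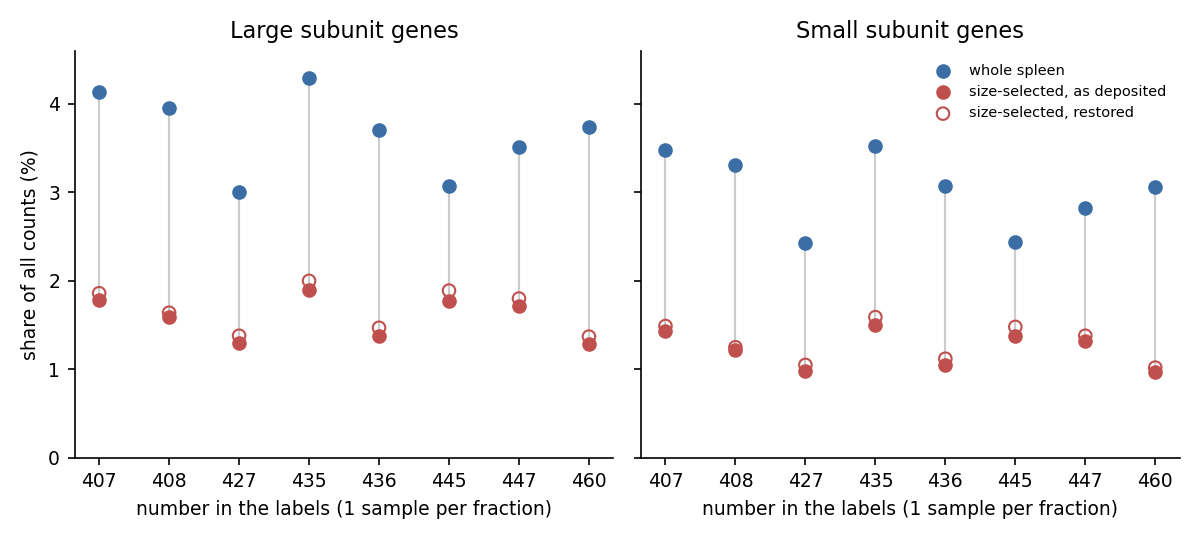
Share of all counts (percent) held by large subunit genes (left) and small subunit genes (right) in each of the 8 numbers, with whole spleen in blue, size-selected as deposited in filled red and restored in open red. In every number and for both subunits the red points lie below the blue point, and restoring the counts moves them up slightly.

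Of the 87 genes, 83 passed the count filter, and a tested gene had at least 15 counts in every sample. With edgeR's quasi-likelihood test and Benjamini-Hochberg adjustment over 14510 genes, 82 were lower and 1 was higher in the size-selected samples. Over all genes tested, 30.4% were called lower and 37.5% higher. The median log2 fold change of the 83 genes was -1.37 (2.59-fold lower), from -1.92 to 0.85, and that of all genes tested was 0.05. On restored counts 82 were again lower and 1 higher, with a median of -1.28 (2.42-fold lower), where 30.4% of all genes were called lower and 37.6% higher. In 81 genes every size-selected sample lay below every whole spleen sample, as 11.6% of all genes tested did, while 23.3% of all genes lay entirely above whole spleen. The 4 genes under the filter were Rpl10l (0 counts in all 16 samples, which allows up to 3 counts in each), Rpl3l (at most 3 counts in a sample), Rpl39l (1 to 5 counts size-selected, 0 to 24 in whole spleen) and Rpl32l (1 to 5 and 4 to 18 counts).

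The decrease was seen in every number but differed in size. The median difference over the 83 genes was smallest in number 445 (-0.81) and largest in number 460 (-1.77), both female, with the other 6 numbers from -1.12 (447) to -1.66 (408). Across numbers it had an SD of 0.33. In 7 numbers 82 of the 83 genes were lower, and in number 435 all 83 were.

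Both subunits took part. All 48 tested genes of the large subunit were lower, with a median log2 fold change of -1.36 (-1.27 restored). In the small subunit 34 of 35 were lower and 1 was higher, with a median of -1.45 (-1.32 restored). Counts of large subunit genes over those of small subunit genes came to 1.22 ± 0.0252 in whole spleen (SD, n = 8; 1.19 to 1.26) and 1.30 ± 0.0306 in the size-selected samples (SD, n = 8; 1.25 to 1.34). This ratio was higher in the size-selected sample in 8 of 8 numbers, although the ranges of the groups touch between 1.25 and 1.26. It was 1.29 ± 0.0304 on restored counts. No test was run on these sums over chosen genes.

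The protein-coding members moved by nearly the same amount. Over the 79 tested, the log2 fold change had an SD of 0.19, or 0.17 on restored counts, where 67 of the 79 lay within 0.25 of their median. Their order of abundance was also kept, with a Spearman rho of 0.99 across the 79 genes between restored size-selected and whole spleen means of log2 CPM, the count of a gene relative to the TMM-scaled total of its sample (a description over genes of the same libraries). Among the 100 most abundant genes by mean log2 CPM, 22 belonged to this set in whole spleen and 3 in the restored size-selected samples.

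Part of the deposited order among members follows the constants. The 12 genes with the middle and high constants had a median of -1.63 as deposited and -1.25 restored. The 67 with the high constant alone had -1.36 and -1.29. The first set thus lay 0.27 below the second as deposited and 0.03 above it when restored. Rpl10, a protein at the peptidyl transferase side of the large subunit, shows the size of this shift: its log2 fold change was -1.37 as deposited and -1.01 restored, which takes it from place 43 to place 78 of 83 when ordered from the most negative. For most members named below both values are given.

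**Figure D2:**
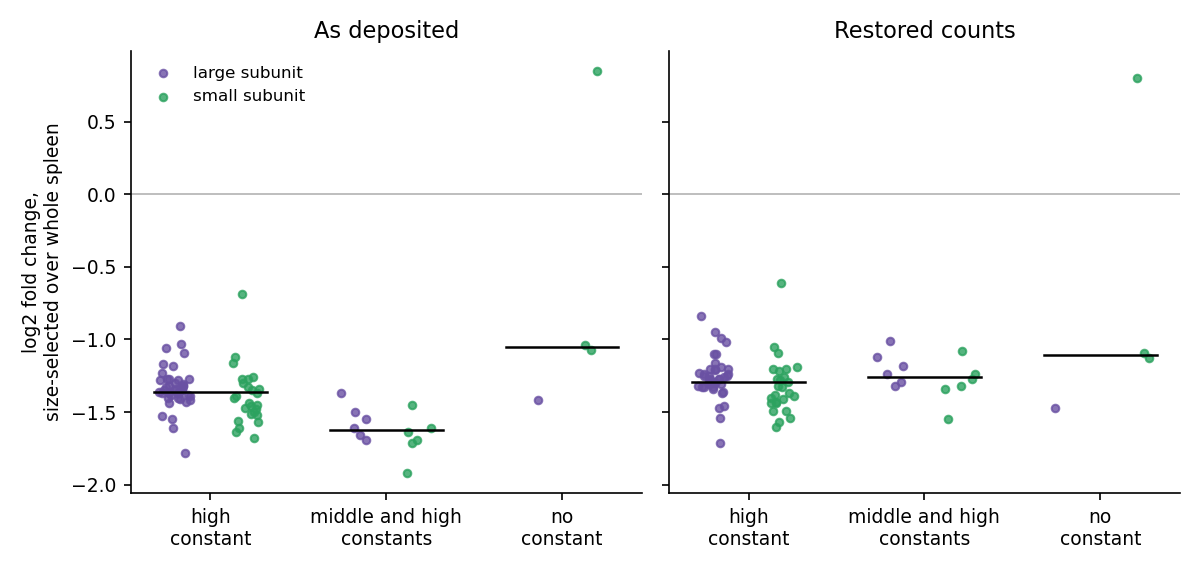
Log2 fold change (size-selected over whole spleen, edgeR) of the 83 tested genes as deposited (left) and on restored counts (right), by the constants their size-selected values carry; purple marks the large and green the small subunit, black lines are medians, and sideways scatter only separates points. The 12 genes with both constants stand lower on the left (median -1.63) and level with the high-constant genes on the right (-1.25 and -1.29).

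Rps15a, a small subunit protein that binds 18S ribosomal RNA (ENSMUSG00000008683, chromosome 7, 118104372 to 118116188, minus strand), had the most negative deposited value. It had 122, 176 and 219 CPM (lowest, median, highest) in the size-selected samples and 493, 653 and 810 CPM in whole spleen. Its log2 fold change was -1.92 (SE 0.14, edgeR adjusted p = 1.87e-09) and -1.55 restored, the fourth most negative. Its lowest whole spleen sample, number 427, was above its highest size-selected sample, number 435. Other small subunit genes with large decreases were Rps18 (-1.69, -1.32 restored) and Rps4x (-1.68, -1.60 restored). Rps18 carries both constants and Rps4x only the high one, so Rps4x fell more than Rps18 on restored counts. Rps4x, on chromosome X, had 308, 369 and 428 CPM in the size-selected samples and 776, 1164 and 1552 CPM in whole spleen.

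The stalk of the large subunit, which recruits elongation factors, was represented by Rplp0, Rplp1, Rplp2 and Rpl12, and all 4 were lower. Rpl12, which sits at the stalk base (ENSMUSG00000038900, chromosome 2, 32961559 to 32965345, plus strand), had 76.8, 116 and 143 CPM in the size-selected samples and 249, 366 and 533 CPM in whole spleen. Its log2 value of -1.78 (SE 0.17, edgeR adjusted p = 4.26e-08) was the second most negative as deposited, and at -1.71 the most negative restored. Rplp1 and Rplp2, the acidic proteins that form the stalk's dimers, had -1.66 (-1.29 restored) and -1.43 (-1.36 restored). Rplp0, the stalk's anchor, had one of the smallest decreases at -1.06 (SE 0.10, edgeR adjusted p = 4.88e-08; -0.99 restored), with 1112, 1310 and 1553 CPM against 2110, 2708 and 3128 CPM. The 4 stalk genes thus differed among themselves in the size of the decrease, with no overlap between fractions in any of them.

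Beside Rplp0, the smallest decreases in the large subunit were in Rpl4, Rpl3 and Rpl36al. Rpl4, whose extension lines the exit tunnel for the new protein, had 478, 687 and 758 CPM in the size-selected samples and 856, 1192 and 1568 CPM in whole spleen, which gave a log2 value of -0.91 (SE 0.12, edgeR adjusted p = 2.25e-06; -0.84 restored). Rpl3, which lies near the peptidyl transferase centre, had -1.03 (-0.95 restored), and Rpl36al, a near copy of Rpl36a, had -1.09 (-1.02 restored). These 3 genes had no overlap between fractions either. At the other end, Rpl8 and Rpl17 had -1.69 (-1.32 restored) and -1.61 (-1.54 restored).

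Rpl5 and Rpl11, which bind 5S ribosomal RNA and, when free, the p53 regulator MDM2, were both lower, at -1.33 (-1.25 restored) and -1.27 (-1.20 restored). They differed in level: Rpl5 had 49.3 to 94.6 CPM in whole spleen and Rpl11 had 321 to 491 CPM, neither corrected for length. Rps27a, made as a fusion with ubiquitin, had -1.33 (-1.26 restored). All 19 genes listed for Diamond-Blackfan anaemia were lower, with a median of -1.37 (-1.29 restored), the same as that of the 83 genes to 2 decimals as deposited.

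Rps4l was the 1 gene called higher. It is annotated as a transcribed processed pseudogene (ENSMUSG00000063171, chromosome 6, 148354656 to 148355598, plus strand), a retrotransposed relative of Rps4x, so how reads were divided between near-identical copies limits its level. It had 16.6, 27.4 and 39.2 CPM in the size-selected samples and 10.7, 13.9 and 19.3 CPM in whole spleen. The groups overlapped, since the size-selected samples 408 and 435 (16.6 and 17.9 CPM) lay below the highest whole spleen samples, and 7 of 8 numbers were higher. Its log2 fold change was 0.85 (SE 0.17, edgeR adjusted p = 2.38e-04; 0.80 restored). In the male numbers alone it was 0.59 with an edgeR adjusted p of 0.140. The other tested pseudogene types were lower: Rpl6l by -1.42, Rps3a3 by -1.07 and Rps3a2 by -1.04, the last with overlapping groups.

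Rps27l, the p53-inducible relative of Rps27 (ENSMUSG00000036781, chromosome 9, 66946086 to 66949516, plus strand), had the smallest decrease of the protein-coding members. It had 79.2, 98.4 and 116 CPM in the size-selected samples and 125, 160 and 182 CPM in whole spleen, with no overlap. The log2 fold change was -0.69 (SE 0.10, edgeR adjusted p = 1.06e-05; -0.61 restored). Rps27 itself had -1.56 (-1.49 restored), so the relative and its main gene moved by unequal amounts.

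**Figure D3:**
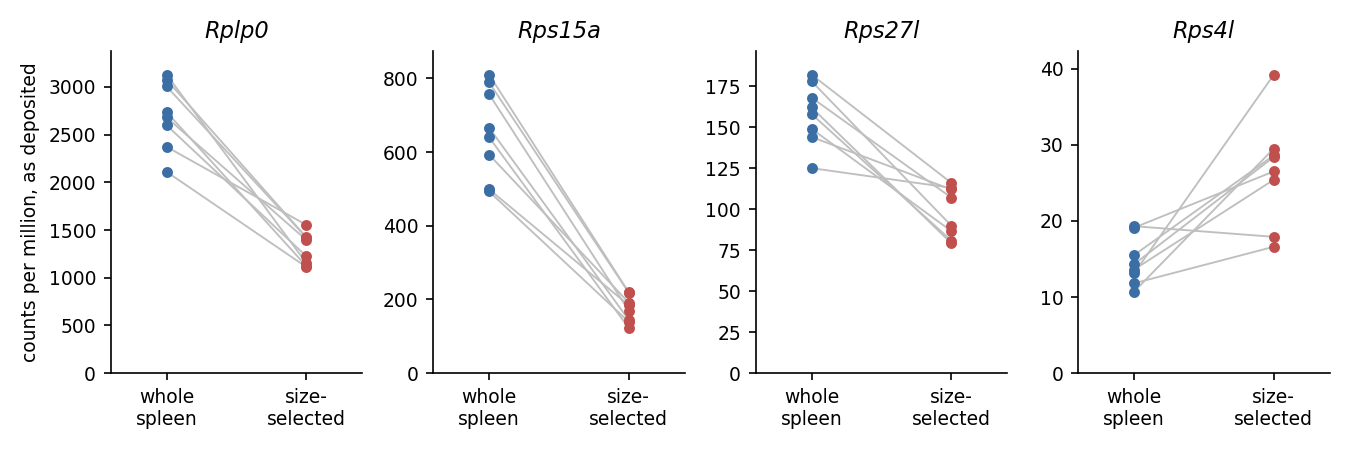
CPM as deposited (linear axes from 0, each gene with its own scale) of Rplp0, Rps15a, Rps27l and Rps4l in whole spleen (blue) and size-selected samples (red), with lines joining the same number. All lines fall for Rplp0, Rps15a and Rps27l, and 7 of 8 rise for Rps4l.

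Such pairs were compared by the ratio of the copy to its main gene within each sample, which needs no scaling between samples. Of 8 pairs, 6 had enough counts, and p-values of an exact two-sided permutation test over the 16 samples (1.55e-04 is the smallest it can give) were adjusted over these 6. Rps4l amounted to 7.64% of Rps4x in the median size-selected sample (4.19 to 12.2%) and to 1.33% in whole spleen (0.852 to 1.56%). The log2 difference was 2.48 (SD of the 8 differences 0.38, exact permutation adjusted p = 3.11e-04; 2.35 restored). Rps27l amounted to 20.2% of Rps27 (15.0 to 31.2%) against 10.9% (10.1 to 14.0%), a difference of 0.88 (SD 0.31, exact permutation adjusted p = 3.11e-04). Both pairs had no overlap between fractions and were higher in 8 of 8 numbers.

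Rpl36al was more abundant in counts than Rpl36a in every sample, at 176% (158 to 199%) size-selected and 149% (137 to 166%) in whole spleen, a log2 difference of 0.25 (SD 0.16, exact permutation adjusted p = 0.00233). Rpl7l1, an assembly factor related to Rpl7 that the symbol rule leaves out, amounted to 19.1% of Rpl7 (16.1 to 22.0%) against 9.97% (7.05 to 14.6%), a difference of 0.95 (SD 0.39, exact permutation adjusted p = 3.11e-04; 0.82 restored). For Rpl22l1, the relative that can replace Rpl22 and is also outside the rule, the ratio was 85.4% (79.8 to 90.7%) against 85.9% (77.7 to 94.3%). That difference of -0.02 was within the spread of the 8 differences (SD 0.11, exact permutation adjusted p = 0.691). Rpl39l over Rpl39 rested on few counts and did not differ beyond the spread (exact permutation adjusted p = 0.357).

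**Figure D4:**
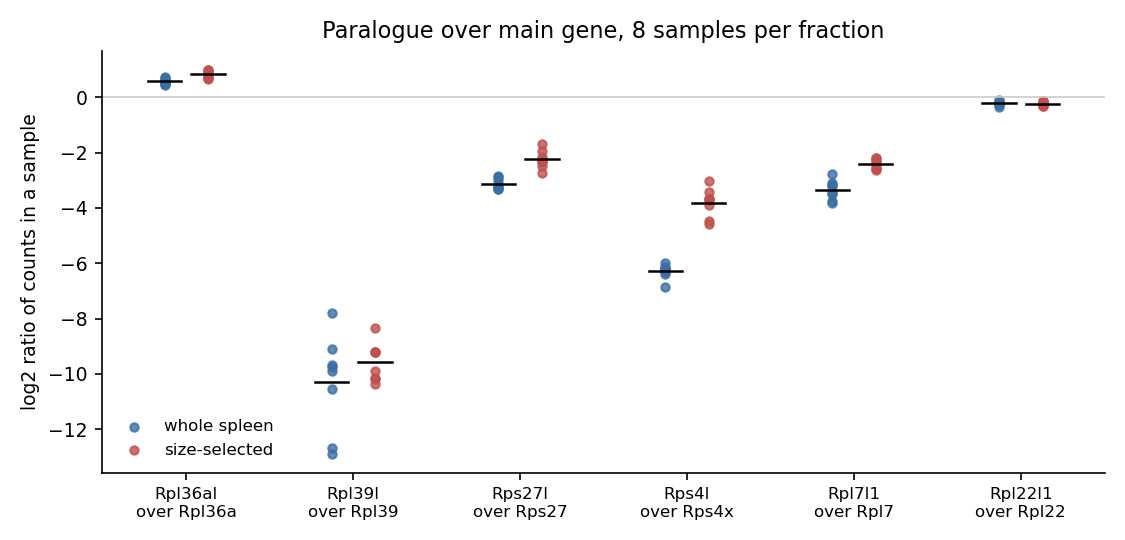
Log2 ratio of the counts of a paralogue to those of its main gene (offset of 0.5 counts) in each of 8 whole spleen (blue) and 8 size-selected (red) samples, with black lines at group means. The red points stand clear of the blue ones for Rps27l, Rps4l and Rpl7l1, overlap partly for Rpl36al, and lie on them for Rpl22l1.

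Levels were compared between genes as TPM, computed here by dividing each gene's counts by the length of its median coding transcript and scaling within the sample. On that scale the ribosomal protein genes made up 11.9% of whole spleen and 5.48% of the size-selected mean. Among the most abundant of the large subunit in whole spleen were Rpl13 (5041 ± 537 TPM) and Rplp0 (3885 ± 317 TPM; SD, n = 8 each). In the small subunit Rps27 (4265 ± 655 TPM), Rps19 (3747 ± 537 TPM) and Rps18 (3443 ± 433 TPM; SD, n = 8 each) led. Rps27, Rps19 and Rps18 overlapped in range over samples, while Rplp0 (3292 to 4327 TPM) lay below Rpl13 (4362 to 5847 TPM). The levels depend on the transcript length used, as the longest transcript gives Rpl13 7452, Rps27 5485, Rps18 4941 and Rps19 2747 TPM, which puts Rps18 above Rps19. Rpl13 and Rps19 were lower in the size-selected samples by log2 fold changes of -1.55 and -1.37 (-1.18 and -1.29 restored).

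In several samples nearly all members were on the same side of their group mean. In whole spleen, 83 of 83 genes were above their group mean in number 435 and 82 in number 407, while 0 were in number 427 and 2 in number 445. The median deviation ran from -0.38 (427) to 0.32 (435) on the log2 scale. Among the size-selected samples, 83 of 83 were above the mean in number 447 and 0 in number 436, and the lowest median was in number 460 (-0.34). Other samples were split, such as whole spleen 436 and 460 with 49 and 65 of 83 above the mean. The same counts were not made over all genes tested, so a wider shift in a sample was not told apart. A number that was low in one fraction was not always low in the other: number 445 was low in whole spleen and above the mean in the size-selected group.

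**Figure D5:**
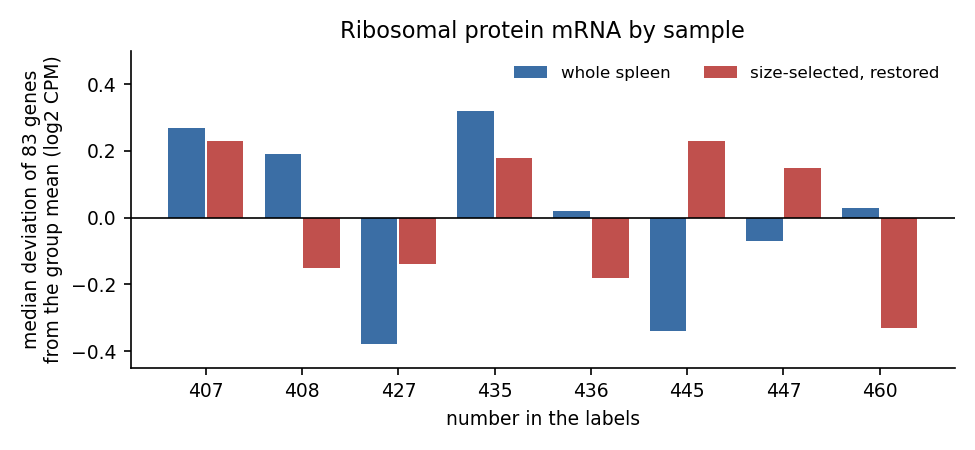
Median over the 83 tested genes of the deviation from the mean of their own group (log2 CPM), for whole spleen (blue) and size-selected samples on restored counts (red), by number. Whole spleen is lowest in 427 and 445 and highest in 435, while the size-selected samples are lowest in 460.

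The fractions also differ in the markers of the cells they hold, summed in CPM. B cell markers ran from 929 to 3316 in the size-selected samples and from 5384 to 6668 in whole spleen, and 6 of 7 were called lower. T cell markers ran from 149 to 427 against 491 to 772 (6 of 7 lower), neutrophil markers from 126 to 770 against 480 to 1725 (5 of 6 lower), and the proliferation genes from 191 to 289 against 372 to 458 (5 of 5 lower). Fibroblast markers ran from 1061 to 3664 against 5.02 to 57.6 (7 of 7 higher), endothelial from 2049 to 5585 against 123 to 431 (6 of 6), smooth muscle from 765 to 3638 against 8.36 to 69.2 (5 of 5), and macrophage from 3233 to 7091 against 1574 to 3007 (3 of 6 higher). The glial markers that the label of the size-selected samples calls for ran from 68.5 to 481 against 1.87 to 6.04 (7 of 7 tested higher), below the fibroblast, endothelial and smooth muscle sums in each of these samples. Mesothelial markers ran from 19.6 to 173 against 0.381 to 3.02 (5 of 5 higher), megakaryocyte markers from 83.4 to 575 against 50.4 to 177 (4 of 4 higher), and erythroid markers from 107 to 3513 against 281 to 13725 (3 of 6 lower). With the number as a replicate block 6 of 6 erythroid, 7 of 7 B cell and 6 of 6 neutrophil markers were lower, 1 T cell marker was higher beside the 6 lower, and 6 of 7 glial markers were higher; on restored counts 2 of 6 erythroid markers were lower. No marker of any list was at 0 in all samples of a group. Over all genes tested, 30.4% were called lower and 37.5% higher. Markers of most of these cell types move with the fraction, while only 3 of 6 erythroid and 3 of 6 macrophage markers were called. The neutrophil, megakaryocyte and erythroid sums overlap between the groups. The part of these cell types in the lower ribosomal protein mRNA was not tested. Within whole spleen, number 427, lowest for ribosomal protein genes, had the highest fibroblast, endothelial and macrophage sums (57.6, 431 and 3007). Number 445, nearly as low, had the lowest fibroblast sum (5.02), and number 435, the highest for ribosomal protein genes, had the second highest endothelial and macrophage sums (292 and 2376). B cell sums were highest in numbers 408, 435 and 407 (6668, 6571 and 6492), which also had the highest median deviations of the ribosomal protein genes, and were lowest in 436, 427 and 445 (5384, 5437 and 5615), of which 427 and 445 were low for these genes and 436 was near the mean. In the size-selected samples B cell sums were lowest in numbers 427, 460 and 436 (929, 1694 and 1916). Their median deviations were -0.16, -0.34 and -0.22 (-0.14, -0.33 and -0.18 restored), the lowest as deposited. Number 435 had a B cell sum of 3292 and a deviation of 0.19. Number 408 went the other way, with the highest B cell sum (3316) and a median deviation of -0.08 (-0.15 restored).

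Genes related to the ribosome were described from lists set by function, whose counts stand beside the 30.4% lower and 37.5% higher over all genes tested. Ribosomal proteins and relatives whose symbols fall outside the rule were lower in 5 of 5 cases. Among them, Rack1, the scaffold on the small subunit head, had a log2 fold change of -1.61, Fau, the precursor of RPS30, had -1.46, Rpl22l1 had -1.18, and Rpl7l1 had -0.31 (edgeR adjusted p = 0.0140). Rack1, Fau and Rpl22l1 lay inside the range of the 79 protein-coding members and Rpl7l1 did not.

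Translation factors and other genes with pyrimidine starts were lower in 18 of 20 cases and higher in 0, with a median of -0.94. Pabpc1, the poly(A)-binding protein, had -1.70, with 226 to 321 CPM size-selected and 621 to 1087 CPM in whole spleen. Tpt1, a growth-related protein, had -1.45. Eif4a2, an RNA helicase of translation initiation, had -0.01 (edgeR adjusted p = 0.949; 0.06 restored), and Snhg1, a snoRNA host, had -0.20 (edgeR adjusted p = 0.607). The medians of this list and of the ribosomal protein genes differed, although single genes such as Pabpc1 reached the values of the most decreased members.

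Further from the ribosome itself, the decreases were smaller, beside the same 30.4% called lower over all genes (31.3% with the block). Ribosome assembly genes were lower in 28 of 40 and higher in 0 (29 and 1 on restored counts), with a median of -0.47; Nhp2 and Emg1, which act in RNA modification, had -1.31 (-1.06 restored) and -1.24 (-0.99 restored), while Nat10 had 0.20 (edgeR adjusted p = 0.362). RNA polymerase I genes were lower in 7 of 12, with a median of -0.34 (8 of 12 with the number as a block), led by Polr1d at -0.89, a subunit shared with RNA polymerase III, and Taf1a, of the promoter factor, had 0.42 (edgeR adjusted p = 0.0758). Mitochondrial ribosomal protein genes were lower in 61 of 78 and higher in 1, Mrps6 at 0.71, with a median of -0.57 (60 lower with the block).

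The list of regulators of pyrimidine-tract translation also holds the transcription factor genes Myc, Mycn and Max. It was mixed, with 8 of 17 lower (30.4% over all genes) and 3 higher (37.5% over all genes). Its median was -0.18 (7 lower, 2 higher and -0.11 on restored counts). Eif4ebp2, a translation repressor that mTOR inactivates, had -1.18, and Tsc2, an inhibitor of mTOR signalling, had 0.83 (1.07 restored). Mycn, a MYC family transcription factor, had 4.15 (edgeR adjusted p = 1.89e-08), from 0.229 to 1.48 CPM in whole spleen to 4.03 to 15.2 CPM in the size-selected samples. Max, the partner of MYC proteins, had -0.72.

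The log2 fold change of the members was nearly the same with and without the features they carry. Genes that hold snoRNA genes within them (30 genes, 58 snoRNA genes) had a median of -1.40 and those without one -1.37; the labels do not say whether counting used the strand. Genes whose promoter held CGGAAG had -1.37, as did those that lacked it. Genes with the pyrimidine start at an annotated site had -1.40 (13 tested) and those without a match there -1.36 (46 tested). A tract that begins at another base was not counted, so the second set can hold genes with a tract. Across the 79 protein-coding members, Spearman's rho of the log2 fold change with transcript length was 0.14, a description over genes that share these libraries.

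Neither sex comparison called a member. In whole spleen, 80 of 83 genes had a negative log2 value for female over male, with a median of -0.22 against -0.01 for all genes tested, and 0 were called by edgeR, where 0.0971% of genes were called lower and 0.0971% higher. Rps19, mutated in Diamond-Blackfan anaemia and the 1 member with an unadjusted edgeR p under 0.05, had -0.37 (SE 0.14) with an edgeR adjusted p of 0.241. DESeq2 and limma-voom called 0 as well, with 5 and 1 members at an unadjusted p under 0.05. Over all 13383 genes tested, 2149 (16.1%) were at an unadjusted p under 0.05 with edgeR, 2282 (17.1%) with DESeq2 and 2144 with limma-voom, a larger share than among the 83 members with each tool. Without number 427, the male number with the lowest whole spleen share, Rps19 was called lower in females (-0.49, edgeR adjusted p = 0.0400). The members share samples in which nearly all were high or low, so the count of negative values does not stand for 80 separate observations.

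Among the size-selected samples, 76 of 83 had a negative edgeR value, with a median of -0.13 against -0.01 for all genes tested. By edgeR, DESeq2 or limma-voom 0 were called, with 0 members at an unadjusted p under 0.05 in each. Over all genes, edgeR had 4.18% at an unadjusted p under 0.05 and called 0.0132% higher and 0.0264% lower. The interaction of sex and fraction had a negative edgeR value in 2 of 83 members, with a median of 0.10 against 0.01 for all genes tested. The same 3 tools called 0 members, with 0 at an unadjusted p under 0.05. Of all genes, edgeR had 4.72% at an unadjusted p under 0.05 and called 0% either way. Here too the members share samples, so these counts of signs do not stand for separate observations. On simulated counts with a log2 change of 1, the edgeR fits recovered 53.2% of changed genes for sex in whole spleen, 9.57% for sex in the size-selected samples and 3.05% for the interaction. DESeq2 recovered 70.1%, 48.4% and 31.1% of them, with 23, 24 and 23 unchanged genes called against 8, 1 and 0 for edgeR. These shares are over genes of all levels, not over the members.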

How the data were processed

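RNA-seq libraries of 8 size-selected and 8 whole spleen samples were analysed. The authors deposited estimated counts per gene, made with Trim Galore, STAR and RSEM on mm10 per the submitters' processing notes, which give no versions, and their own table of log2 fold changes (deposited log2 values from DESeq per those notes). The constants in the size-selected columns were searched from the values (9 decimals) and divided out as restored counts; the search found all 3 constants in 8 of 8 simulated columns. Counts were rounded to whole numbers, filtered with filterByExpr (minimum count 10), scaled by TMM and tested with edgeR 4.0.16 (quasi-likelihood F test, R 4.3.3) over all genes, with calls at a Benjamini-Hochberg adjusted p under 0.05. Because the fit is relative, CPM and fold changes refer to TMM-scaled totals. Pair ratios used exact permutation tests with an offset of 0.5 counts (scipy 1.17.1). On simulated counts with a log2 change of 1, the fraction fit recovered 75.1% of changed genes.

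The numbers pair the samples: deviations from group means correlated at 0.12 to 0.38 (mean 0.21) for same-numbered samples and -0.03 on average for others, across 14510 genes, and 8 of 8 size-selected samples correlated best with their own number. The labels do not say that a number is 1 mouse, so p-values measure the spread between these samples. Alternatives were RLE scaling, library totals, scaling without the members, DESeq2 1.42.0, voom from limma 3.58.1, other filters, the replicate block, sex as a covariate, a single sex, restored counts and leaving out each number; restored counts for the sex comparisons and with a number left out were added after the data were seen. The members and lists were chosen with earlier results of these data known. Genes named are the 4 most and 4 least negative and the 3 most abundant per length of each subunit, the stalk, 5S, ubiquitin and paralogue groups, and the 2 extremes of each list in each direction; Rpl10, Rpl6l and Rps19 in the sex comparison were chosen after their values were seen. Some genes that this rule takes are not reported here.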

Additional observations from a re-analysis of the deposited data

Results flagged for a closer look

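Of 64 groups of 8 values screened, 2 held a sample far from the others, where chance gives about 1 in 20 (3.20 groups). Rps3a2, an annotated processed pseudogene, had a log2 CPM of 3.35 in the whole spleen sample of number 427, below the 3.87 to 4.26 of the other samples of its group. The log2 ratio of Rps4l to Rps4x was -6.87 in the whole spleen sample of number 408, below the -6.37 to -6.00 of the others, which is farther from the size-selected ratios.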

How the results depend on the processing

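The counts of 82 genes lower and 1 higher between fractions were the same under RLE scaling, library totals, scaling without the ribosomal protein genes, DESeq2, limma-voom, sex as a covariate, restored counts and female numbers only, and 83 and 80 were lower with no filter and with a count minimum of 50. With the number as a replicate block they were also 82 and 1, with a median log2 fold change of -1.37, and the block changed no other call on these genes; over all genes tested it gave 5531 higher and 4545 lower, and it changed the marker and list counts given with it above. In the male numbers alone 0 genes were called higher, so 0 in the small subunit, since Rps4l missed the threshold; fewer samples entered that fit. Leaving out each number gave 82 to 82 lower, 1 to 1 higher and a median from -1.42 to -1.32. Library totals moved the median of all genes by 0.13, and that of the members to -1.24. Leaving out a number gave 0 to 1 genes lower by sex in whole spleen, and ratio differences of 2.41 to 2.58 for Rps4l, 0.81 to 0.93 for Rps27l, 0.85 to 1.04 for Rpl7l1, 0.22 to 0.29 for Rpl36al, 0.21 to 1.03 for Rpl39l and -0.03 to 0.01 for Rpl22l1, whose sign turned without number 460 (0.01); the cause was not tested. Paired sign flips gave an exact p of 0.00781, the smallest possible, for Rps4l, Rps27l, Rpl7l1 and Rpl36al. Of 509 recomputed values for single genes, 503 kept direction and call, 1 (Rps4l in males) did not, and 5 levels per length moved with the longest transcript. Depth limits Rpl39l, Rpl3l and Rpl32l.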

Other observations

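The 298 rows named as ribosomal protein pseudogenes, which the rule leaves out, held 0.0779 to 0.114% of counts in the size-selected samples and 0.160 to 0.214% in whole spleen, with no overlap. They were thus lower in the same samples as the genes they derive from, and reads shared with those genes cannot be told apart from their own. The authors' deposited table of 2201 genes, whose lowest log2 fold change is 3.50, holds 0 of the 87 ribosomal protein genes.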
